A study of Mus musculus with 8 samples.

Results

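The natriuretic peptides are small hormones that the heart and vessels make to lower blood pressure and to restrain growth. The 7 genes described here are the peptide genes Nppa, Nppb and Nppc, the receptor genes Npr1, Npr2 and Npr3, and Corin. Corin encodes a protease that activates the peptide made from Nppa. They were chosen by symbol, matched to Entrez gene IDs, out of 27179 genes counted in embryonic mouse hearts. The family was put together with results of the same mutant to wild type contrast already known, so its values in that contrast are a description and carry no test of the family.

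RNA was sequenced from 8 hearts taken at E10.5, when the heart tube has looped and its chambers are forming. MOZ KO hearts (n = 3) were Kat6a-/-, without either intact copy of Kat6a, which encodes the histone acetyltransferase MOZ. MOZ WT hearts (n = 5) were Kat6a+/+. No other allele and no treatment is named for either group, and sex, litter and strain are not given in the labels.

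Nppa encodes atrial natriuretic peptide (ANP), Nppb encodes brain natriuretic peptide (BNP) and Nppc encodes C-type natriuretic peptide (CNP). In the embryonic heart Nppa is a classic marker of the chamber myocardium and is absent from the atrioventricular canal. ANP and BNP act through NPR1 and CNP through NPR2, both of which are membrane guanylyl cyclases that raise cyclic GMP (cGMP). NPR3 binds all 3 peptides but has no cyclase domain. It takes peptides out of circulation and can couple to inhibitory G proteins, and in the embryonic heart its gene is a marker of the endocardium.

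Total counts were 19911803 to 30033097 in MOZ KO hearts and 20817852 to 34539787 in MOZ WT hearts. Myocardial RNA was abundant in each heart, with 10370 to 11450 CPM (counts scaled to a common library size) summed over 7 atrial markers in MOZ KO hearts and 9495 to 12020 in MOZ WT hearts. The whole-gene count of Kat6a was 137.1 ± 3.81 CPM in MOZ KO hearts and 144.6 ± 6.92 CPM in MOZ WT hearts (SD). It does not check the labels, since a transcript of a disrupted gene can still be counted. Xist RNA was present in 2 hearts, MOZ WT replicates 4 and 5, and in none of the MOZ KO hearts, so results that lean on those hearts are given without them too. The S numbers in the labels run through the MOZ KO hearts before the MOZ WT hearts. What they number is not stated, and any order behind them cannot be told apart from genotype.

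The promoters of the cardiac peptide genes are shown because a list of transcription factors known to act on them is described further on. Each sequence runs from 250 bases before a RefSeq start to 50 bases after it, on GRCm38.p6 (mm10). Nppa lies at chr4:148000472-148000771 and Nppb at chr4:147985650-147985949, both on the plus strand. Capitals mark matches on either strand to a GATA motif (GATAA), an Nkx2-5 motif (TNAAGTG), a T-box motif (GTGTGA), an M-CAT motif (CATTCC) and a TATA box (TATAAA).
Nppa: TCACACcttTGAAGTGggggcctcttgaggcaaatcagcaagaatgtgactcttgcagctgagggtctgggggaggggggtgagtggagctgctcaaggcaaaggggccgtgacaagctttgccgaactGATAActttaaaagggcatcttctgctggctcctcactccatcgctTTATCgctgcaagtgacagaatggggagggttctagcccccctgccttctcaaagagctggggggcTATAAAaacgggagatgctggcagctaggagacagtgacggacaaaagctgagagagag
Nppb: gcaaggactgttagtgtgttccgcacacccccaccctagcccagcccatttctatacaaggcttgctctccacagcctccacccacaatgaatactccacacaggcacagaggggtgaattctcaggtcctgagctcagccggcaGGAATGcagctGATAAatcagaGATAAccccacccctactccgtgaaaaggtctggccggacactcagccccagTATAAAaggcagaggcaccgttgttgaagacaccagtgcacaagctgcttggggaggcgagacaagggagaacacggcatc

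Both promoters held 2 GATA matches and a TATA match. Neither held an exact match to a CArG box (CCWWWWWWGG) or a MEF2 site (YTAWWWWTAR), where W is A or T, Y is C or T and R is A or G. Sites that differ from these letters were not searched for, so the absence of an exact match does not show that such a site is lacking. In Nppa the GATA matches lay at -121 to -117 and, on the minus strand, at -75 to -71, with position 0 at the start. The Nppa window also held a T-box match on the minus strand and an Nkx2-5 match near its upstream end. In Nppb the GATA matches lay at -94 to -90 and -83 to -79, beside an M-CAT match at -105 to -100 on the minus strand. The TATA match lay at -9 to -4 in Nppa and at -31 to -26 in Nppb. Of 32851 RefSeq promoters of that length, 25.4% held GATAA, 11.5% held TNAAGTG, 14.5% held GTGTGA, 14.7% held CATTCC and 13.6% held TATAAA, while a CArG box was found in 1.63% and a MEF2 site in 3.19%. The promoter windows of Npr1, Npr2, Npr3 and Corin held none of these motifs, and that of Nppc held a TATA match. The Npr3 window ends around a start that lies 1697 and 1732 bases upstream of the GENCODE vM21 starts that carry a CAGE tag, so it may not be the promoter in use. The Nppb gene begins at 147985786, inside its window, and the Npr2 gene at 43629015, before its window of 43631685 to 43631984. The start used for Nppb and Npr2 is thus not the first base of the gene. These matches are letters in a window and say nothing about binding.

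Within the family, the clearance receptor gene Npr3 was lower in MOZ KO hearts, and the other genes that could be tested did not pass. Of the 7 genes, 6 had enough counts for the test, edgeR's quasi-likelihood test over 15086 genes with Benjamini-Hochberg adjustment at 0.05. Of these 6, 1 passed and was lower, where 2.67% of all tested genes passed, 1.23% as lower and 1.44% as higher. In that same gene all MOZ KO values lay below all MOZ WT values, as they did in 4.81% of tested genes. Groups did not overlap in either direction in 9.59% of tested genes, and all MOZ KO values lay above in 4.77%. Since the contrast was known when the genes were chosen, nothing is read from these shares. The number of genes that passed over the whole table was 403, with 217 higher and 186 lower in MOZ KO, and it moved with single hearts: without MOZ KO replicate 1 there were 103 higher and 91 lower, without MOZ KO replicate 2 there were 117 lower, and without MOZ KO replicate 3 there were 144 higher and 119 lower.

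**Figure D1:**
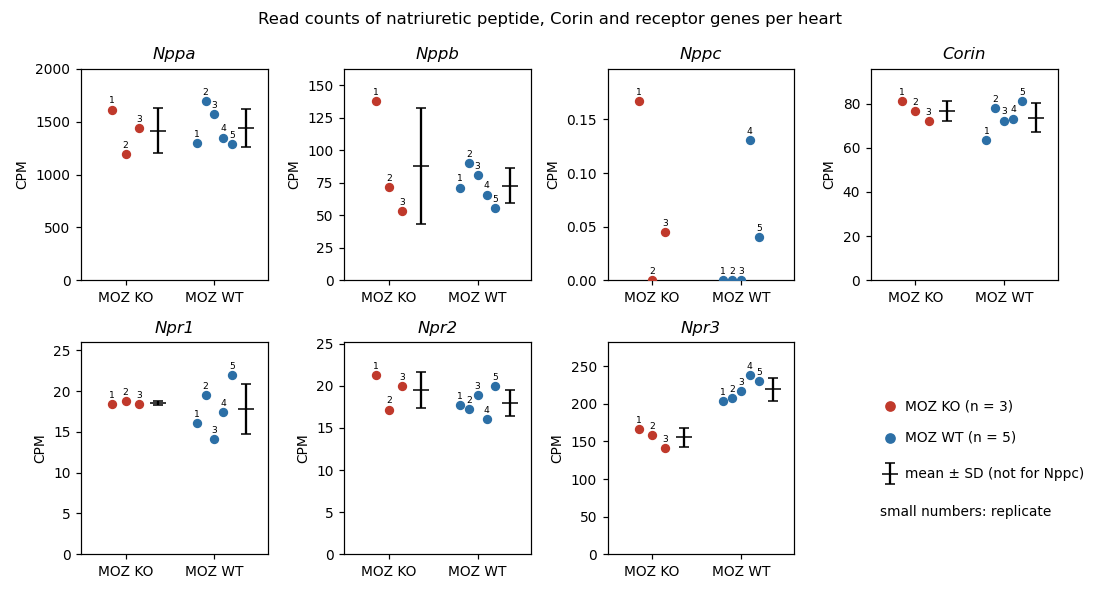
Scaled counts (CPM, y axis from 0, a scale of its own for each gene) in each heart, MOZ KO in red and MOZ WT in blue, with replicate numbers and the mean ± SD beside the points except for Nppc. The 3 MOZ KO hearts lie below the 5 MOZ WT hearts for Npr3, while the groups overlap for the other genes.

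Nppa (Entrez 230899, chromosome 4, 148000722 to 148002074) had 1615, 1190 and 1442 CPM in MOZ KO replicates 1 to 3, against 1295, 1697, 1570, 1350 and 1288 CPM in MOZ WT replicates 1 to 5. The lowest heart was a MOZ KO heart and the highest a MOZ WT heart, and the groups overlapped over most of their range. The log2 fold change, MOZ KO over MOZ WT, was -0.02 ± 0.13 (SE; adjusted p = 0.963, edgeR), with a 95% interval of -0.35 to 0.30. Its sign turned when MOZ KO replicate 2, MOZ WT replicate 2 or MOZ WT replicate 3 was left out.

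Nppb (Entrez 18158) sits beside Nppa on chromosome 4, at 147985786 to 147987205, with 13516 bases between them. It had 138.1, 71.5 and 53.3 CPM in MOZ KO hearts, against 71.4, 89.9, 81.2, 66.0 and 55.3 CPM in MOZ WT hearts. The MOZ KO hearts thus held both the highest and the lowest value. The log2 fold change was 0.28 ± 0.33 (adjusted p = 0.797, edgeR), with a 95% interval of -0.54 to 1.10. Without MOZ KO replicate 1, the highest heart, it was -0.22. The SD of Nppb within groups was 0.46 on the log2 scale, larger than that of 90.5% of tested genes, so these hearts leave its difference poorly determined.

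Nppc (Entrez 18159, chromosome 1, 86666293 to 86670573) was at the limit of detection. It had 5, 0 and 1 counts in MOZ KO hearts, against 0, 0, 0, 3 and 1 counts in MOZ WT hearts, and was not tested. A count of 0 allows up to 3 counts, which corresponds to 0.0869 to 0.151 CPM over the hearts, counting error only. A difference in this CNP gene was not detectable at this depth.

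Corin (Entrez 53419, chromosome 5, 72299948 to 72504540) encodes the membrane serine protease that cuts pro-ANP on cardiomyocytes. It had 81.1, 76.7 and 72.2 CPM in MOZ KO hearts, against 63.6, 77.9, 72.3, 73.2 and 81.2 CPM in MOZ WT hearts. The MOZ KO values lay inside the range of the MOZ WT values. The log2 fold change was 0.06 ± 0.07 (adjusted p = 0.772, edgeR), with a 95% interval of -0.11 to 0.23.

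The genes of the cyclase receptors, which carry the signal of the peptides into the cell, did not pass. Npr1 (Entrez 18160, chromosome 3, 90450591 to 90465928) had 18.5, 18.8 and 18.4 CPM in MOZ KO hearts, against 16.1, 19.6, 14.1, 17.5 and 22.0 CPM in MOZ WT hearts. The 3 MOZ KO hearts were close together and inside the range of the MOZ WT hearts, and the log2 fold change was 0.06 ± 0.12 (adjusted p = 0.885, edgeR; 95% interval -0.22 to 0.34). It was -0.02 without MOZ WT replicate 3, the lowest heart. Npr2 (Entrez 230103, chromosome 4, 43629015 to 43651437) had 21.3, 17.2 and 20.02 CPM in MOZ KO hearts, against 17.7, 17.3, 18.9, 16.1 and 19.998 CPM in MOZ WT hearts. Its highest heart was MOZ KO replicate 1, MOZ KO replicate 3 was level with the highest MOZ WT heart, and MOZ KO replicate 2 fell among the MOZ WT hearts. The log2 fold change was 0.12 ± 0.10 (adjusted p = 0.642, edgeR; 95% interval -0.12 to 0.35).

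Npr3 (Entrez 18162, chromosome 15, 11839896 to 11907837) had 166.7, 158.8 and 141.7 CPM in MOZ KO hearts, against 203.3, 207.5, 217.4, 238.8 and 230.1 CPM in MOZ WT hearts. The highest MOZ KO heart stood well below the lowest MOZ WT heart, so the groups did not overlap. The fold was 0.71, with a 95% interval of the log2 fold change of -0.64 to -0.35. The adjusted p was 1.32e-04 (edgeR) and is a description here, because this contrast was known when the genes were chosen. MOZ WT replicates 4 and 5, the hearts with Xist RNA, held the highest Npr3 values. Without them the log2 fold change was -0.43 (adjusted p = 6.02e-04, edgeR). Across 18 alternatives, among them each heart left out in turn, it ran from -0.55 to -0.43.

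Cell type markers moved beside Npr3. The 8 marker lists were chosen with earlier results of these data known, so their p-values and counts are a description. Of all tested genes, 2.67% passed in edgeR, 1.23% as lower and 1.44% as higher. Markers of the endocardium and endothelium, the lining in which Npr3 is known to be expressed, were on balance higher in MOZ KO hearts, opposite to Npr3. The mean log2 CPM of 10 markers was 6.61 ± 0.02 in MOZ KO hearts and 6.49 ± 0.05 in MOZ WT hearts (SD; two-sided exact permutation p = 0.0179, the smallest that 56 splits of the hearts can give, 0.0357 adjusted over 8 marker lists). Their summed level was 1152 to 1208 CPM in MOZ KO hearts and 1053 to 1174 CPM in MOZ WT hearts, and none of the 10 was at 0. In the edgeR fit 2 of the 10 passed, both as higher: the adhesion molecule gene Pecam1 (0.20 ± 0.05, adjusted p = 0.0187) and the receptor gene Tie1 (0.20 ± 0.05, adjusted p = 0.0332). Without the hearts with Xist RNA neither passed, with adjusted p = 0.0830 for Pecam1 and 0.0990 for Tie1 (edgeR). Both calls were also lost without any 1 MOZ KO heart or MOZ WT replicate 3, and that of Tie1 without MOZ WT replicate 1, 4 or 5. Nfatc1, named after its values were seen, had 99.4 ± 4.01 CPM in MOZ KO hearts and 95.9 ± 5.60 CPM in MOZ WT hearts (SD). Its groups overlapped and it did not pass (0.05 ± 0.05, adjusted p = 0.744, edgeR). Of the 10 markers, 9 had a log2 fold change above 0. The exception, named after its values were seen, was the angiopoietin receptor gene Tek, with 156.9 ± 6.35 CPM in MOZ KO hearts and 172.1 ± 6.81 CPM in MOZ WT hearts (SD; -0.13 ± 0.05, adjusted p = 0.175, edgeR), where all MOZ KO hearts lay below all MOZ WT hearts.

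Set against the mean of these 10 endothelial markers within each heart, log2 Npr3 was higher by 0.763, 0.688 and 0.569 in MOZ KO hearts, against 1.24, 1.19, 1.31, 1.36 and 1.32 in MOZ WT hearts. The means were 0.673 ± 0.098 in MOZ KO hearts and 1.28 ± 0.07 in MOZ WT hearts (SD). This restates the lower Npr3 and higher marker values within hearts and is no separate result. In whole hearts, fewer cells of a type and less RNA per cell cannot be told apart.

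**Figure D2:**
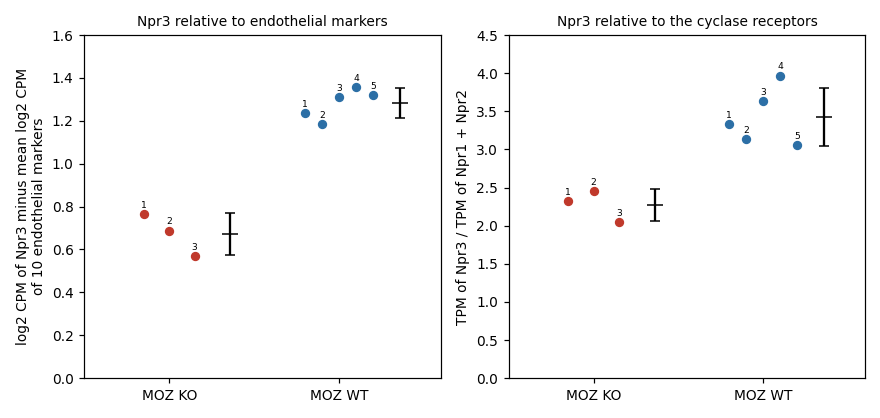
Left, log2 CPM of Npr3 minus the mean log2 CPM of 10 endothelial markers in each heart; right, TPM (length-scaled level) of Npr3 divided by the summed TPM of Npr1 and Npr2. MOZ KO is red and MOZ WT blue, numbers are replicates and bars show mean ± SD; the MOZ KO hearts lie below the MOZ WT hearts in both panels, with 2.05 to 2.46 in MOZ KO and 3.05 to 3.97 in MOZ WT on the right.

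Other marker lists moved as well, and their part in the Npr3 values was not tested. The mean log2 CPM of 9 epicardial markers differed by -0.37 and that of 7 macrophage markers by 1.51, MOZ KO minus MOZ WT (exact permutation, 0.0357 adjusted over 8 lists for each). Summed, the epicardial markers had 311.3 to 360.1 CPM in MOZ KO hearts and 441.9 to 507.3 CPM in MOZ WT hearts, and 6 of the 9 fell in the edgeR fit (Wt1, Upk3b, Upk1b, Tcf21, Lrrn4 and Bnc1). The macrophage markers had 44.3 to 47.4 CPM in MOZ KO hearts and 19.0 to 39.0 CPM in MOZ WT hearts, and 4 of the 7 rose (Csf1r, Adgre1, C1qa and C1qb). Adgre1, C1qa and C1qb were low in MOZ WT hearts, with means of 0.40, 0.46 and 0.79 CPM. The shift of 1.51 thus rests in part on few counts. The calls of Tcf21 and Csf1r were lost without any 1 MOZ KO heart or MOZ WT replicate 3, 4 or 5, and that of Upk1b without MOZ KO replicate 2. Without the hearts with Xist RNA, Tcf21 (adjusted p = 0.127) and Csf1r (0.193) did not pass in edgeR, while the other 8 of these genes did. The list of 5 atrioventricular canal markers, a region where Nppa is silent, was higher by 0.19 on the log2 scale (0.0357 adjusted over 8 lists, exact permutation), though none of its genes passed the edgeR test. An unadjusted p under 0.05 was found in 3 of its 5 genes, where 14.2% of all tested genes had one.

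The mean levels of the myocardial lists gave no such shift beside Nppa, Nppb and Corin. The difference in mean log2 CPM was -0.06 for 10 trabecular and chamber markers (exact permutation p = 0.375), 0.03 for 7 atrial markers (p = 0.911) and 0.06 for 6 ventricular markers (p = 0.411). An unadjusted p under 0.05 in edgeR was found in 6 of the 10, 0 of the 7 and 5 of the 6. Of all tested genes, 14.2% had one. Within the trabecular and the ventricular list these genes moved in both directions, which a mean can cancel. Single genes in these lists did pass in the edgeR fit. Irx3, a homeobox gene of the trabecular and conduction myocardium, fell (-0.45 ± 0.07, adjusted p = 9.87e-04), and the ventricular light chain gene Myl3 rose (0.27 ± 0.06, adjusted p = 0.0105, lost without MOZ KO replicate 1 or 3). Without the hearts with Xist RNA, Myl3 had a log2 fold change of 0.19 and did not pass (adjusted p = 0.0653, edgeR). Irx4 of the ventricular list fell (-0.25 ± 0.06, adjusted p = 0.0413, edgeR). Its call was lost without any 1 MOZ KO heart or MOZ WT replicate 1, 2 or 3. The 7 red cell markers varied widely between hearts, with 4937 to 8407 CPM in MOZ KO hearts and 3548 to 14550 CPM in MOZ WT hearts (difference -0.08, exact permutation p = 0.893).

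Scaled by gene length as TPM, levels can be set between genes. Nppa averaged 4091 ± 619 TPM in MOZ KO hearts and 4191 ± 553 TPM in MOZ WT hearts (SD), where it ranked 14 among all 27179 genes. Nppb followed with 269 ± 138 TPM in MOZ KO hearts and 225 ± 42.4 TPM in MOZ WT hearts. Npr3 came next, with 53.9 ± 4.49 TPM in MOZ KO hearts and 76.4 ± 4.76 TPM in MOZ WT hearts, ahead of Corin with 36.5 ± 2.17 TPM in MOZ KO hearts and 35.3 ± 3.36 TPM in MOZ WT hearts. Npr2 had 12.8 ± 1.39 TPM in MOZ KO hearts and 11.9 ± 1.04 TPM in MOZ WT hearts, and Npr1 had 10.9 ± 0.13 TPM in MOZ KO hearts and 10.6 ± 1.89 TPM in MOZ WT hearts. The clearance receptor gene was thus the most abundant receptor gene of the family in each heart.

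Each step in this order held in all 8 hearts with no overlap of ranges, except that between Npr2 and Npr1. There the TPM ranges overlapped, and Npr2 was above Npr1 in 7 of 8 hearts. In MOZ WT means Nppa stood 18.6-fold above Nppb, Nppb 2.95-fold above Npr3, Npr3 2.16-fold above Corin, Corin 2.98-fold above Npr2 and Npr2 1.12-fold above Npr1. Counts per kilobase gave the same order.

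**Figure D3:**
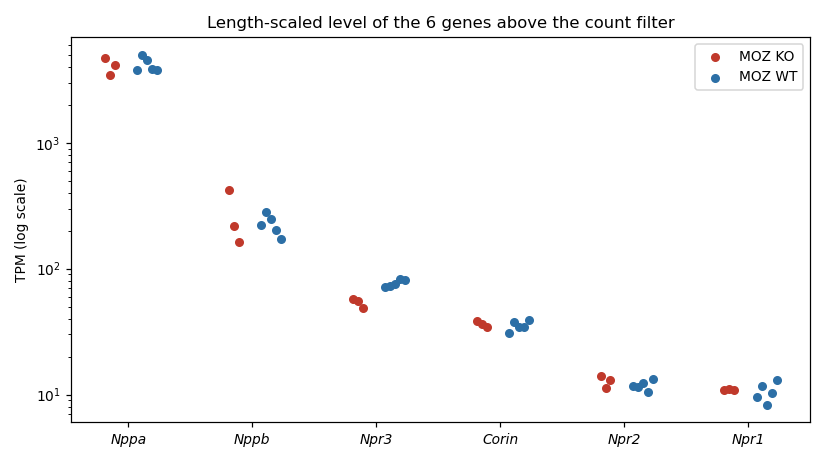
TPM, the length-scaled level, on a log scale, of the 6 tested genes in each heart, from the most to the least abundant in MOZ WT, MOZ KO hearts in red to the left of MOZ WT hearts in blue. Steps from Nppa to Npr2 show no overlap, and Npr2 and Npr1 overlap at about the same level.

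The balance between receptors differed with Npr3. The ratio of Npr3 to the summed TPM of Npr1 and Npr2 was 2.32, 2.46 and 2.05 in MOZ KO hearts, against 3.34, 3.14, 3.63, 3.97 and 3.05 in MOZ WT hearts. The ratio was above 1 in each heart and did not overlap between genotypes, which restates the lower Npr3 value and is no separate result. The ratio of Nppa to Nppb by TPM was 11, 15.7 and 25.5 in MOZ KO hearts, against 17.1, 17.8, 18.2, 19.3 and 21.9 in MOZ WT hearts. The MOZ WT hearts were close together and the MOZ KO hearts lay on both sides of them. Nppa alone made up 91.5 ± 2.20% of the family's TPM in MOZ KO hearts and 92.1 ± 0.28% in MOZ WT hearts (SD).

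How the genes varied from heart to heart was described by Pearson's r of log2 CPM over the 8 hearts, against 12753 genes whose log2 CPM averaged 1 or more. The highest of so many values is high by selection, and hearts share depth and composition, so no p is given. For Nppb the most alike genes were Ankrd1 (r = 0.977), a stretch-responsive cardiac repeat protein, Nr4a1 (r = 0.952), an immediate early nuclear receptor, and 1500004A13Rik (r = 0.945). Ankrd1 had 956, 629 and 529 CPM in MOZ KO hearts, against 624, 804, 711, 656 and 542 CPM in MOZ WT hearts. Its highest heart, MOZ KO replicate 1, and its lowest, MOZ KO replicate 3, were those of Nppb. Nr4a1 shared the highest heart with 22.7 CPM in MOZ KO replicate 1, against 14.7 to 19.0 CPM over the MOZ WT hearts.

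**Figure D4:**
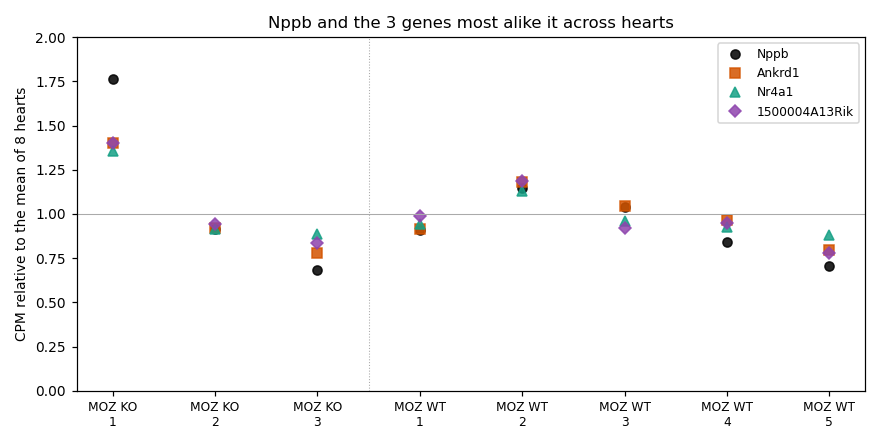
CPM of Nppb, Ankrd1, Nr4a1 and 1500004A13Rik in each heart, divided by each gene's mean over the 8 hearts; MOZ KO replicates 1 to 3 stand left of the dotted line and MOZ WT replicates 1 to 5 right of it. All 4 genes are highest in MOZ KO replicate 1, and MOZ WT replicate 2 is the highest of its group.

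For Npr3 the most alike genes were Slc6a6 (r = 0.993), the taurine transporter, Eif4ebp2 (r = 0.979), a translation repressor, and Sf1 (r = 0.978), a splicing factor. Their r reflects the step between genotypes in part. With each heart's deviation from its own group mean, r was 0.948 for Slc6a6, 0.849 for Eif4ebp2 and 0.838 for Sf1. Slc6a6 had 137.7, 135.2 and 132.7 CPM in MOZ KO hearts, against 144.8, 146.8, 150.0, 152.9 and 150.4 CPM in MOZ WT hearts. It ranked the MOZ KO hearts as Npr3 did, and its groups did not overlap (-0.14 ± 0.04, adjusted p = 0.107, edgeR).

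Nppa was most like Dcbld2 (r = 0.959), Ing3 (r = 0.955) and Otud1 (r = 0.935), and Corin most like the collagen gene Col4a5 (r = 0.981), L3mbtl3 (r = 0.962) and the RNA editing gene Adarb1 (r = 0.958). Npr1 was most like Specc1l (r = 0.967), Palm3 (r = 0.939) and the collagen gene Col5a2 (r = 0.926), and Npr2 most like Ier3 (r = 0.944), Ap5s1 (r = 0.939) and Fkbp10 (r = 0.932). Among themselves, the 5 tested genes other than Npr3 gave 10 pairs, and none passed after adjustment over the 10. The closest pair was Npr1 and Corin (Pearson's r = 0.665, exact permutation p = 0.0757; Spearman's rho = 0.810, p = 0.0218; adjusted p = 0.495 and 0.218), with r = 0.863 without the 2 hearts farthest in Npr1. Nppa and Nppb, the neighbours on chromosome 4, gave r = 0.611 (exact permutation p = 0.0990) and rho = 0.571 (p = 0.151), and r = 0.722 without the 2 hearts farthest in Nppa.

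Genes next to the family on their chromosomes did not pass the test. Beside Nppa, on the side away from Nppb, the chloride transporter gene Clcn6 begins after 2184 bases and had 22.4 ± 1.00 CPM in MOZ KO hearts and 22.0 ± 1.09 CPM in MOZ WT hearts (SD; log2 fold change 0.03 ± 0.08, adjusted p = 0.933, edgeR). The nearest tested genes to Npr3 were the threonyl-tRNA synthetase gene Tars (-0.03 ± 0.06, adjusted p = 0.894), 440237 bases away, and the coactivator gene Sub1 (-0.04 ± 0.04, adjusted p = 0.748), 73498 bases away, both at a similar level in the groups while Npr3 was not. The remaining nearest tested genes, 2510039O18Rik beyond Nppb, Cops7b and Dis3l2 around Nppc, Ints3 and Ilf2 around Npr1, Rgp1 and Hint2 around Npr2, and Atp10d and Nfxl1 around Corin, had log2 fold changes of -0.11 to 0.15 and adjusted p of at least 0.400. Of all these neighbours, Hint2 and Nfxl1 had groups that did not overlap.

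Overlapping genes could add reads to a count where strand was ignored, and no source at hand states the strand setting of the counting. The long noncoding gene Gm5144, which overlaps Npr3, had 6 to 20 counts per heart, where Npr3 had 3124 to 7495. Spag8 shares 108 bases with Npr2 and had 0 to 13 counts per heart. Corin overlaps 3 small RNA genes or pseudogenes outside the table.

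The enzymes that process and degrade the peptides were described by a list of 9 genes, of which 6 were tested, 1 fell and 0 rose, with a median log2 fold change of -0.08. Over all tested genes 1.23% fell and 1.44% rose, the median was -0.0001 and 49.95% lay above 0. The gene that fell was Mme, which encodes neprilysin, the membrane protease that degrades ANP and CNP. It had 23.7, 26.4 and 27.1 CPM in MOZ KO hearts, against 44.5, 38.7, 38.7, 30.0 and 33.1 CPM in MOZ WT hearts. The MOZ KO hearts lay below each MOZ WT heart, and the log2 fold change was -0.53 ± 0.11 (adjusted p = 0.0156, edgeR). The call was lost without any 1 of the MOZ KO hearts or without MOZ WT replicate 3, with adjusted p up to 0.131, and it held without the hearts with Xist RNA (3.72e-04). Next came the proprotein convertase gene Pcsk5, with 53.3 ± 1.08 CPM in MOZ KO hearts and 61.3 ± 2.39 CPM in MOZ WT hearts (SD; -0.20 ± 0.06, adjusted p = 0.0600). Its groups did not overlap, and it did not pass. The other 4 tested genes of the list did not pass. The 3 untested ones, Ostn, whose product binds NPR3, and the meprin genes Mep1a and Mep1b, were named after their values were seen and had at most 8 counts in any heart.

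Other routes to cGMP were covered by 11 genes of the soluble and remaining membrane guanylyl cyclases and the nitric oxide synthases. Of these 6 were tested and 0 passed in edgeR or in DESeq2, with a median of 0.08. An unadjusted p under 0.05 in edgeR was found in 1 of the 6, near the share of 14.2% over all tested genes. The soluble cyclase subunit gene Gucy1a1 had 130.0 ± 7.79 CPM in MOZ KO hearts and 119.8 ± 9.15 CPM in MOZ WT hearts (SD; 0.12 ± 0.06, adjusted p = 0.372). Gucy1a2 had 17.5 ± 1.27 CPM in MOZ KO hearts and 20.4 ± 1.94 CPM in MOZ WT hearts (-0.22 ± 0.10, adjusted p = 0.275).

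Downstream of cGMP, 12 genes of cGMP-dependent kinases, their targets and the inhibitory G proteins that NPR3 couples to were all tested. In edgeR 0 passed and the median was -0.04, while DESeq2 called 1. An unadjusted p under 0.05 in edgeR was found in 4 of the 12, beside 14.2% of all tested genes. The gene called by DESeq2 was Prkg2, the type II kinase. It had 0.201, 0.763 and 0.495 CPM in MOZ KO hearts, against 1.32, 2.20, 0.754, 1.48 and 1.62 CPM in MOZ WT hearts. The groups overlapped by MOZ WT replicate 3, and the log2 fold change was -1.64 ± 0.44 (adjusted p = 0.0521 in edgeR and 0.0137 in DESeq2). Rgs4, a regulator of G protein signalling, had 2.22 ± 0.12 CPM in MOZ KO hearts and 3.53 ± 0.80 CPM in MOZ WT hearts (SD; -0.67 ± 0.22, adjusted p = 0.129, edgeR). The main cardiac and vascular kinase gene Prkg1 had 62.8 ± 3.92 CPM in MOZ KO hearts and 61.5 ± 2.09 CPM in MOZ WT hearts, and was chosen for mention after its values were seen.

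Among 10 phosphodiesterase genes whose products can hydrolyse cGMP, 9 were tested, 1 rose and 1 fell, with a median of 0.16. Over all tested genes, 1.44% rose and 1.23% fell. The pair that passed encode the cGMP-inhibited phosphodiesterases, and they moved in opposite directions. Pde3a, the main cardiac form, had 68.4, 68.1 and 70.7 CPM in MOZ KO hearts, against 53.5, 60.1, 54.8, 58.6 and 58.5 CPM in MOZ WT hearts. All MOZ KO hearts lay above all MOZ WT hearts, and the log2 fold change was 0.28 ± 0.06 (adjusted p = 0.00720, edgeR; 0.0535 without MOZ KO replicate 3). Pde3b had 43.1, 46.9 and 41.5 CPM in MOZ KO hearts, against 58.2, 52.95, 57.6, 51.8 and 51.6 CPM in MOZ WT hearts. Here all MOZ KO hearts lay below all MOZ WT hearts, and the log2 fold change was -0.32 ± 0.06 (adjusted p = 0.00794, edgeR). That call was lost without MOZ KO replicate 1 or MOZ KO replicate 3, with adjusted p up to 0.0634. Pde2a, chosen for mention after its values were seen, had 14.7 ± 4.2 CPM in MOZ KO hearts and 8.999 ± 1.94 CPM in MOZ WT hearts (SD; adjusted p = 0.114, edgeR). It passed without the hearts with Xist RNA (0.0188, edgeR), with Xist as a covariate (0.0130), with the replicate number as a block (0.00794) and in DESeq2 (0.00594). With the replicate number as a block Pde3a did not pass (adjusted p = 0.0529, edgeR).

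Among 22 transcription factors known to act on Nppa or Nppb, 7 fell, 0 rose and 15 did not pass. Over all tested genes, 1.23% fell and 1.44% rose. The median log2 fold change of the list was -0.12, and neither peptide gene passed. The list was chosen with earlier results of these data known, so these counts are a description. Hand1, a factor of the outer curvature of the ventricle, had 40.5, 45.3 and 43.4 CPM in MOZ KO hearts, against 90.9, 104.3, 86.3, 83.3 and 76.2 CPM in MOZ WT hearts. Irx5, a homeobox repressor, had 29.3, 29.9 and 28.5 CPM in MOZ KO hearts, against 37.2, 35.2, 39.9, 42.4 and 38.5 CPM in MOZ WT hearts. In both genes the groups stood apart, with a log2 fold change of -1.04 ± 0.09 for Hand1 (adjusted p = 1.47e-05) and -0.40 ± 0.07 for Irx5 (adjusted p = 0.00248, edgeR). The others fell less: Srf, which binds CArG boxes, by 0.21 on the log2 scale (adjusted p = 0.00708), Gata4 by 0.19 (0.0199), Gata5 by 0.23 (0.0266), Irx4 by 0.25 (0.0413) and Hand2 by 0.22 (0.0446).

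Nkx2-5, with 311.9 ± 4.91 CPM in MOZ KO hearts and 339.0 ± 15.9 CPM in MOZ WT hearts (SD), and Tbx5, with 93.9 ± 8.46 CPM in MOZ KO hearts and 108.3 ± 9.93 CPM in MOZ WT hearts, did not pass and were chosen for mention as partners of GATA4 after their values were seen. The repressors Tbx2 and Tbx3, which keep Nppa silent in the atrioventricular canal, did not pass and were likewise named after their values were seen. Their log2 fold changes were 0.16 ± 0.07 for Tbx2 (adjusted p = 0.333, edgeR) and 0.24 ± 0.11 for Tbx3 (0.330). Both genes also belong to the list of atrioventricular canal markers described above. Of the 7, 4 passed without the hearts with Xist RNA, and Gata4 (adjusted p = 0.0961), Gata5 (0.108) and Hand2 (0.146) did not (edgeR). Gata4, Gata5, Irx4 and Hand2 lost their call without MOZ KO replicate 1 or without MOZ KO replicate 2. The call was also lost for Gata5 without MOZ WT replicate 5, for Irx4 without MOZ KO replicate 3 or MOZ WT replicate 1, 2 or 3, and for Hand2 without MOZ KO replicate 3 or MOZ WT replicate 2, 4 or 5, while Hand1, Irx5 and Srf passed without any 1 heart and without the hearts with Xist RNA. In a fit with the replicate number as a block, Irx5 (adjusted p = 0.0585, edgeR) and Srf (0.0766) did not pass, while Hand1 and Irx4 did.

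**Figure D5:**
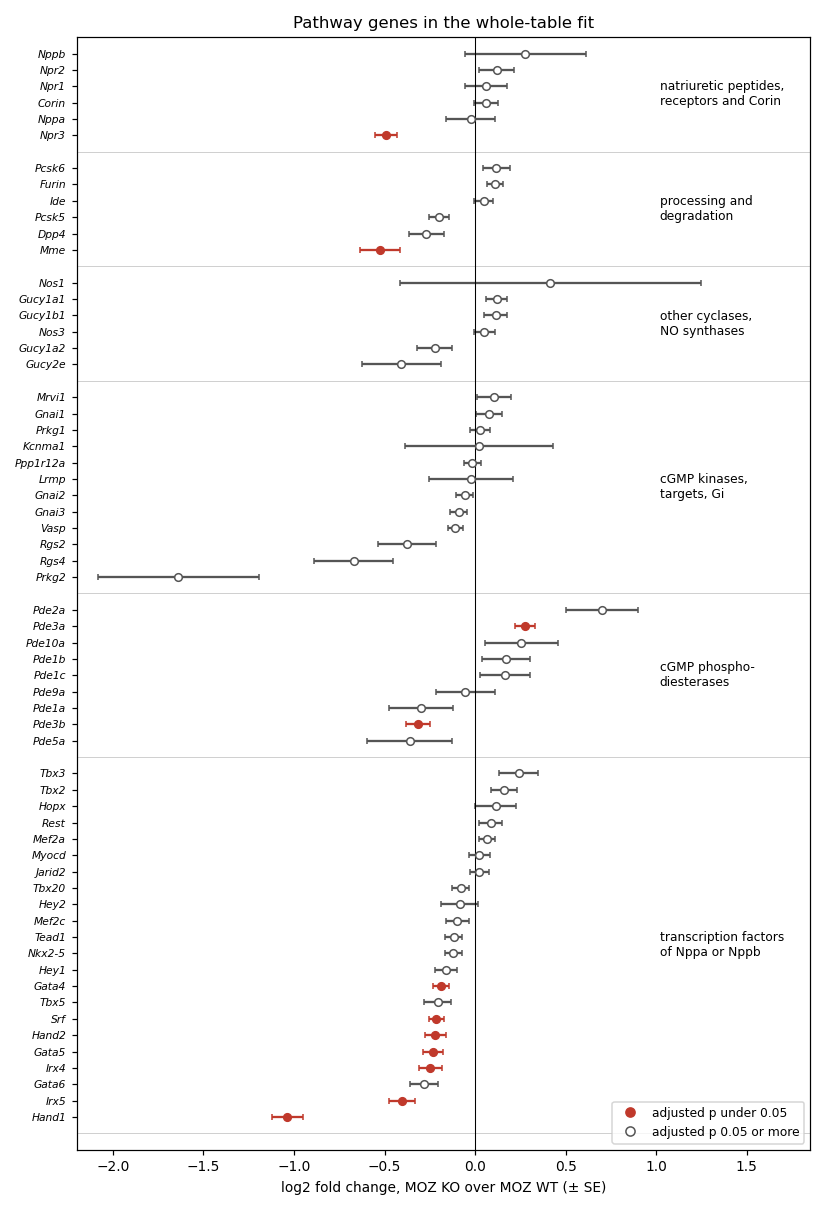
Log2 fold change, MOZ KO over MOZ WT, with its SE (bars) for the tested genes of the family and of 5 pathway lists; filled red points passed an adjusted p of 0.05 in edgeR and open points did not. Npr3 and Mme lie left of 0 and pass, Pde3a and Pde3b pass on opposite sides, and the 7 transcription factors that pass all lie left of 0.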

How the data were processed

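Total RNA from each heart was made into libraries with a stranded kit, per the labels' protocols. The submitters' processing notes name bcl2fastq, featureCounts and the mm10 build. Versions, aligner and strand setting were not stated in any source used here. Unnormalized counts of 27179 Entrez genes were deposited, and the series table and the 8 single-heart files were identical. Symbols and positions came from the RefSeq table of GRCm38.p6 (25275 IDs matched, 1904 did not). Irag1 and Irag2 were looked up as Mrvi1 and Lrmp.

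Using R 4.3.3 and edgeR 4.0.16, genes were filtered with filterByExpr by group (15086 kept), scaled by TMM and tested with the robust quasi-likelihood test over all 8 hearts without covariates, with Benjamini-Hochberg adjustment. SE was derived from the log2 fold change and its F statistic, and 95% intervals use 6 degrees of freedom. CPM uses scaled library sizes, and TPM the gene lengths in the files. The biological coefficient of variation was 9.10%, and counting error adds to the spread of genes with few counts. Marker lists were tested with exact permutation over hearts.

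The family, the 5 pathway lists, the 8 marker lists and the naming rule were chosen with earlier results of these data known. Named genes are the family, Kat6a, list genes past the threshold (or the 2 of smallest p where fewer than 2 passed), the nearest tested neighbours, the 3 most alike genes of members at 10 CPM or more, and markers past the threshold; Xist and genes that overlap a member are named besides, and any other gene is said to be chosen after its values were seen. The 18 alternatives were DESeq2 1.42.0, limma voom (limma 3.58.1) with quality weights, 2 other scalings, 2 other filters, no robust moderation, a replicate block, Xist as a covariate, leaving out hearts with Xist RNA, and leaving out each heart.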

Additional observations from a re-analysis of the deposited data

Results flagged for a closer look

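Of 66 genes examined among the 5 MOZ WT hearts, 4 had a heart whose gap to its nearest neighbour took up an unusually large share of the group's range, where chance marks about 1 group in 20. Pecam1 had 150 CPM in MOZ WT replicate 2, with the next heart at 139 CPM. Csf1r, a macrophage marker, had 7.33 CPM in MOZ WT replicate 2, with the next at 4.06 CPM. Hint2, the neighbour of Npr2, had 20.1 CPM in MOZ WT replicate 1, with the next at 18.8 CPM. Eif4ebp2, one of the genes most like Npr3, had 119 CPM in MOZ WT replicate 4, with the next at 113 CPM. No gene of the natriuretic peptide family had such a heart among the MOZ WT hearts, and groups of 3 were not examined.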

How the results depend on the processing

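Npr3 kept its direction and its side of the threshold under all 18 alternatives, with adjusted p from 5.48e-11 to 0.00577; the other 5 tested genes of the family stayed above the threshold under each, with adjusted p of at least 0.429. Leaving out 1 heart gave -0.13 to 0.08 for Nppa (0.082 without MOZ KO replicate 2, 0.04 without MOZ WT replicate 2 and 0.01 without MOZ WT replicate 3), -0.22 to 0.53 for Nppb and -0.017 to 0.15 for Npr1 (log2; the negative value without MOZ WT replicate 3). Other scalings moved the median of all tested genes by less than 0.01.

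The replicate numbers did not pair the hearts (same-numbered correlations of deviations 0.0659, -0.119 and -0.0538). A fit with the replicate number as a block gave -0.43 for Npr3 (adjusted p = 0.00577, edgeR), 104 genes higher, 77 lower and 2 transcription factors, Hand1 and Irx4. Genes higher numbered 217, with 103 to 300 when 1 heart was left out and 290 in DESeq2. Genes lower numbered 186, with 91 to 200 when 1 heart was left out, 116 without the hearts with Xist RNA and 290 in DESeq2. The 7 transcription factors became 4 with Xist as a covariate, 4 without the hearts with Xist RNA and 3 to 7 with 1 heart left out. The 2 phosphodiesterases became 4 with Xist as a covariate and 0 to 3 with 1 heart left out. The 1 processing gene became 2 in DESeq2 and 0 to 1 with 1 heart left out. For the kinase list 0 became 1 without a count filter, with a filter of 1 CPM in 3 hearts and in DESeq2, and 0 to 1 with 1 heart left out. The cause of these moves was not tested. Depth limits Nppc and Prkg2.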
